A study of Bos taurus with 12 samples.

Results

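The 9 genes described here encode enzymes of the last stretch of cholesterol synthesis, in which lanosterol, the first sterol of the pathway, is turned into cholesterol: CYP51A1, TM7SF2, LBR, MSMO1, NSDHL, HSD17B7, EBP, SC5D and DHCR7. They were chosen by name, and every array probe whose RefSeq transcript carries one of these symbols was taken. This gave 19 of the 43653 probes on the array and 9 of the 12787 genes that could be given a symbol. The question was how these transcripts changed in the mammary gland when lactating cows were underfed.

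Mammary tissue came from Holstein cows in midlactation, by biopsy of the rear udder. In the CONT period (day 0) the cows ate a lactation diet freely, and in the REST period (day 6 of restriction) they received 50% of their net energy requirement. Each of the 6 cows named in the labels gave 1 CONT and 1 REST sample, hybridized to 12 single-colour bovine arrays (the series design text counts 5 cows). The methods of the study state that a Holstein cow was left out because of mastitis, and the labels do not say whether it is among these 6. CONT always came before REST and no cow stayed on full feed, so restriction cannot be told apart from time or from a second biopsy.

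Lanosterol carries 3 surplus methyl groups, and the enzymes of this stretch remove them, move a double bond within the ring and reduce the remaining ones. Most of the genes are known targets of SREBP-2, a transcription factor of the endoplasmic reticulum that is released when membrane sterol runs low. In the lactating gland, cholesterol goes into the membranes of the secretory cells and into the membrane that coats milk fat globules, and much of it is taken up from blood lipoproteins.

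Array signals are given on the log2 scale relative to the 75th percentile of the same array, so that a difference of −1 stands for a halved signal. A change is REST minus CONT within cows, and it was called where the adjusted p-value (limma with the cow as a block, Benjamini-Hochberg over all tested probes) was under 0.1. A gene is given by its brightest tested probe unless another probe is named. Slide 3, which held cows 5 and 6, was dimmer than the other slides (75th percentile of 73.2 to 117 against 252 to 390.0 intensity units), and before scaling the REST arrays were the brighter ones in 6 of 6 cows (by 0.30 ± 0.10 log2 units, SD, n = 6). Of the 19 probes, 18 were well above background on all 12 arrays and were tested. The other one, the dimmest LBR probe, was well above background on 4 of 6 CONT and 4 of 6 REST arrays and was not tested.

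During REST, 8 of the 9 genes fell, and LBR was the exception. Among all tested genes, 9.27% were called lower in REST and 6.94% higher. Without pairing, 7 of the 9 genes were called lower, beside 2.81% of all tested genes. The median change of the 9 genes was −0.84, beside −0.01 for all 7930 tested genes. TM7SF2, a sterol C14 reductase, fell most, to 35.9% of its CONT signal (95% interval 30.0 to 43.0%), although with normexp background correction CYP51A1 fell further (−1.02 against −1.001 on the log2 scale with the 75th percentile shift, −1.09 against −1.01 with quantile normalization). HSD17B7, a 3-keto sterol reductase, fell least among the called genes, to 73.9% (62.3 to 87.6%). In 4 genes (CYP51A1, MSMO1, NSDHL and DHCR7) every REST array lay below every CONT array, which held for 1.66% of all tested genes. The 8 genes were also called lower with quantile or median normalization. These are measurements on bulk tissue, in which fewer cells of a type and less RNA per cell cannot be told apart.

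**Figure D1:**
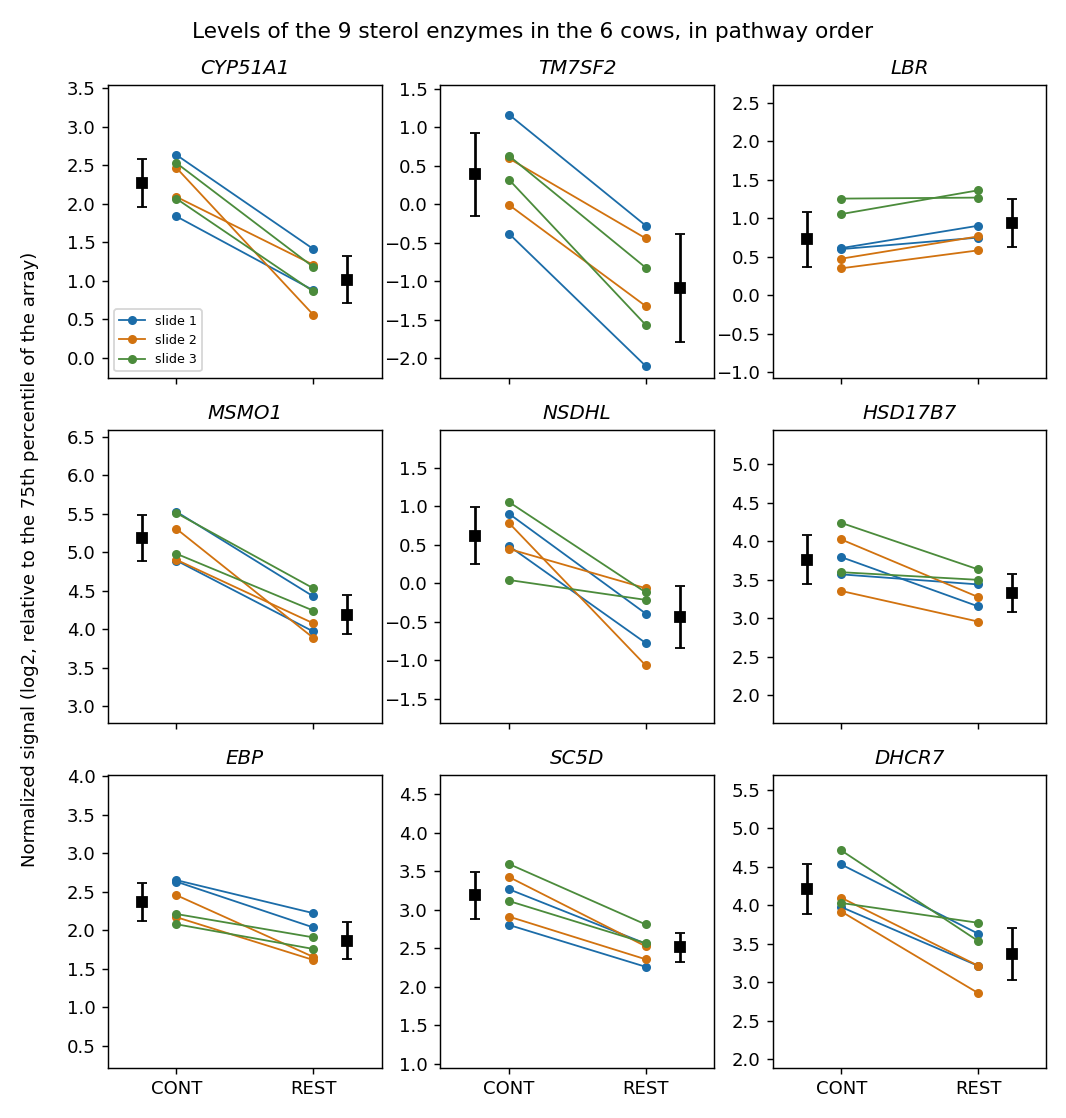
Normalized signal (log2, relative to the 75th percentile of the array) of the brightest probe of each of the 9 genes in CONT and REST, with a line per cow coloured by slide and black squares for the mean ± SD of the 6 cows. Every panel spans the same number of log2 units, and the lines fall in all cows in every panel except LBR, where they rise slightly.

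CYP51A1 is the cytochrome P450 that removes the C14 methyl group of lanosterol and so opens this stretch. Its CONT signal lay between 1.83 and 2.63 with a median of 2.28, and its REST signal between 0.56 and 1.41 with a median of 1.03. The groups did not overlap, and the highest REST array was that of cow 1. The change was −1.25 (SE 0.13, adjusted p = 0.00462), which leaves 41.9% of the CONT signal (34.1 to 51.5%). The second probe changed by −1.23 (SE 0.10, adjusted p = 0.00180), also without overlap. Between cows the fall ran from −0.88 in cow 3 to −1.91 in cow 4, the largest fall of any of the 9 genes in any cow.

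The double bond that CYP51A1 leaves at C14 can be reduced by either of 2 proteins of related sequence, TM7SF2 in the endoplasmic reticulum and LBR in the inner nuclear membrane. LBR also binds lamin B and heterochromatin, so its transcript serves nuclear architecture as well as sterol synthesis. The array carries 1 probe for TM7SF2 and 3 for LBR.

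TM7SF2 lay between −0.38 and 1.16 in CONT with a median of 0.46, and between −2.10 and −0.28 in REST with a median of −1.07. The cows differed widely in level and the groups overlapped, with cow 1 highest and cow 2 lowest in both periods. Within cows the fall was −1.44, −1.72, −1.04, −1.31, −1.89 and −1.45 in cows 1 to 6. The change was −1.48 (SE 0.11, adjusted p = 0.00122), and TM7SF2 had the smallest p-value of the 9 genes, at place 8 among all 19403 tested probes. Without pairing its standard error was 2.76 times as large and the adjusted p-value was 0.0336.

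LBR lay between 0.35 and 1.26 in CONT with a median of 0.61, and between 0.58 and 1.36 in REST with a median of 0.83. The groups overlapped over most of their range. Within cows the differences were 0.15, 0.29, 0.29, 0.23, 0.31 and 0.01, so the signal was higher in REST in 6 of 6 cows, but the change of 0.21 (SE 0.08, 95% interval 0.04 to 0.39) was not called (adjusted p = 0.116). The second tested probe did pass, with 0.28 (SE 0.08, adjusted p = 0.0658), higher in 6 of 6 cows. Across all tested probes, 7.22% were called higher in REST. Without pairing neither probe passed (adjusted p = 0.591 and 0.270). The untested dim probe had differences from −0.09 to 1.16, above 0 in 4 of 6 cows. LBR did pass under 5 other settings, 3 of them other normalizations, with adjusted p between 0.0539 and 0.0992.

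The TM7SF2 change minus the LBR change was −1.69 ± 0.34 (SD, n = 6, SE 0.14) and lay below 0 in 6 of 6 cows. It ran from −1.33 in cow 3 to −2.20 in cow 5. With normexp background correction it was smaller, at −1.25 and −1.20. The pair was taken up with its direction already known, so these values are a description and no p-value is given.

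MSMO1, NSDHL and HSD17B7 act in turn to strip the methyl groups at C4. MSMO1 oxidizes the methyl group, NSDHL removes the resulting carboxyl group and leaves a 3-keto sterol, and HSD17B7 reduces that ketone.

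MSMO1 lay between 4.89 and 5.53 in CONT with a median of 5.14, and between 3.89 and 4.53 in REST with a median of 4.16. The groups did not overlap. The change was −0.996 (SE 0.10, adjusted p = 0.00456), which leaves 50.1% of the CONT signal (42.8 to 58.7%). All 4 MSMO1 probes were called, with changes from −1.01 to −0.91, and each was lower in 6 of 6 cows. On 2 of the 4 probes the groups overlapped.

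NSDHL lay between 0.05 and 1.06 in CONT with a median of 0.64, and between −1.06 and −0.06 in REST with a median of −0.30. The groups did not overlap, although the lowest CONT array (cow 5) and the highest REST array (cow 3) were close. The change of −1.06 (SE 0.19, adjusted p = 0.0193) leaves 48.0% of the CONT signal (35.6 to 64.8%). Its size varied more between cows than that of any other of the 9 genes (SD of the within-cow changes 0.58, n = 6): the falls were −1.30, −1.26, −0.51, −1.85, −0.26 and −1.17 in cows 1 to 6. The second probe changed by −0.80 (SE 0.16, adjusted p = 0.0227), and its groups overlapped.

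HSD17B7 lay between 3.35 and 4.24 in CONT with a median of 3.70, and between 2.96 and 3.64 in REST with a median of 3.36. The groups overlapped. Within cows the falls were −0.64, −0.13, −0.75, −0.40, −0.60 and −0.10, and the change was −0.44 (SE 0.11, adjusted p = 0.0452). This call was the least firm of the 8: it was lost without cow 1 (−0.40, adjusted p = 0.114), without cow 4 (−0.44, adjusted p = 0.112) and without pairing (adjusted p = 0.184). The second HSD17B7 probe, with −0.32 (SE 0.14, adjusted p = 0.162), was not called and was lower in 4 of 6 cows.

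EBP, SC5D and DHCR7 finish the ring. EBP, the isomerase that moves the double bond from C8 to C7, lay between 2.08 and 2.65 in CONT with a median of 2.33, and between 1.61 and 2.22 in REST with a median of 1.83. The groups overlapped, since the REST array of cow 2 lay above the lowest CONT arrays. The change was −0.50 (SE 0.09, adjusted p = 0.0193), which leaves 70.7% of the CONT signal (61.4 to 81.4%). The second EBP probe changed by −0.57 (SE 0.09, adjusted p = 0.0128), and its groups did not overlap.

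SC5D, the desaturase that adds the C5 double bond to lathosterol, lay between 2.80 and 3.59 in CONT with a median of 3.19, and between 2.26 and 2.81 in REST with a median of 2.54. The groups touched only at the highest REST array (cow 6) and the lowest CONT array (cow 2). The change was −0.67 (SE 0.08, adjusted p = 0.00654), which leaves 62.7% (55.1 to 71.4%). The second SC5D probe changed by −0.51 (SE 0.08, adjusted p = 0.0130), and its groups overlapped.

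DHCR7 reduces 7-dehydrocholesterol, the sterol that is also the precursor of vitamin D in skin. It lay between 3.92 and 4.71 in CONT with a median of 4.06, and between 2.86 and 3.77 in REST with a median of 3.38. The groups did not overlap. Cow 5 fell least (−0.26), and the other cows fell by −0.76 to −1.18. The change was −0.84 (SE 0.12, adjusted p = 0.00913), which leaves 55.9% of the CONT signal (46.3 to 67.5%), and the array carries 1 DHCR7 probe.

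**Figure D2:**
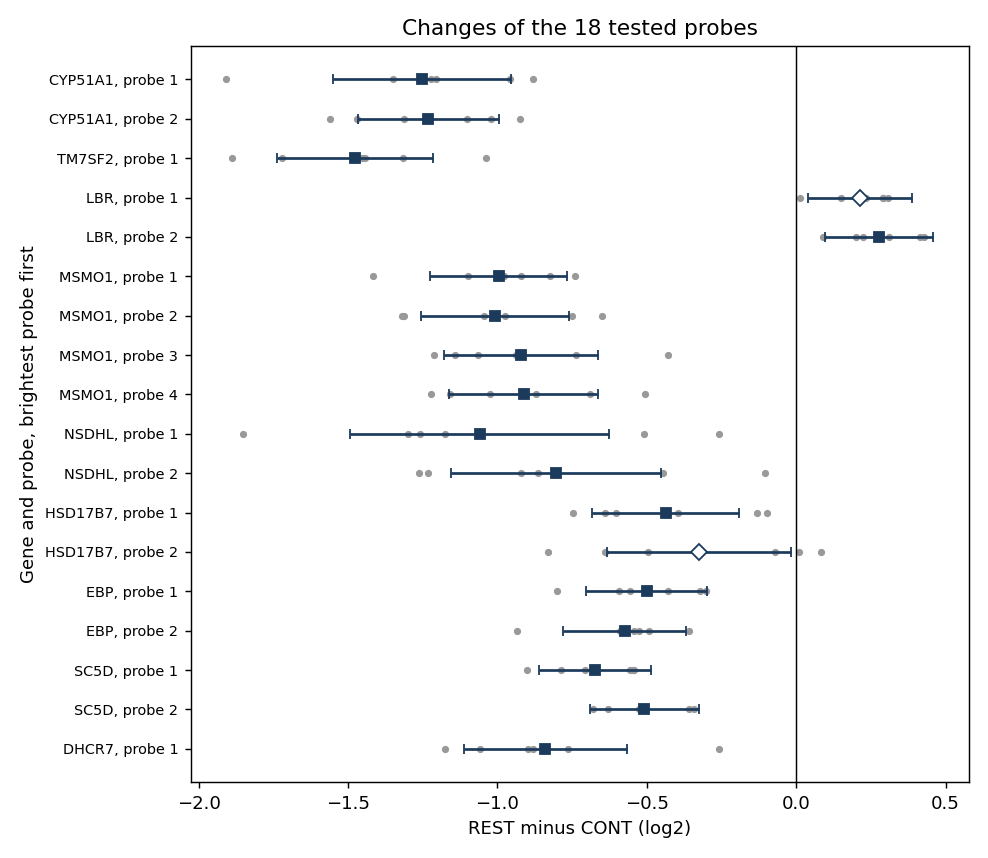
Change (REST minus CONT, log2) of the 18 tested probes of the 9 genes, with squares (called) or open diamonds (not called) at the limma estimate, bars for its 95% interval and grey points for the 6 cows. All estimates other than those of LBR lie left of 0, and the open diamonds are the brightest LBR probe and the second HSD17B7 probe.

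At the level of probes, 16 of the 18 tested were called, 15 lower and 1 (LBR) higher. Of all 19403 tested probes 16.0% were called, made up of 8.78% lower and 7.22% higher. Without pairing, 14 of the 18 were called, beside 4.31% of all tested probes. Of the 7 genes with at least 2 tested probes, 5 had every probe called lower (CYP51A1, MSMO1, NSDHL, EBP and SC5D), as did 5.54% of the 3861 genes with at least 2 tested probes. Probes of a gene read the same RNA and are not replicates. Their changes differed by 0.02 for CYP51A1 and by up to 0.25 for NSDHL.

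In order of the change, TM7SF2 (−1.48) was followed by CYP51A1 (−1.25), NSDHL (−1.06), MSMO1 (−0.996), DHCR7 (−0.84), SC5D (−0.67), EBP (−0.50), HSD17B7 (−0.44) and LBR (0.21). The 95% intervals of all neighbours in this order overlapped except those of HSD17B7 and LBR. TM7SF2 fell more than CYP51A1 in 5 of 6 cows, with a difference of −0.22 ± 0.49 (SD, n = 6), which is smaller than its spread. The HSD17B7 change minus the LBR change was −0.65 ± 0.34 (SD, n = 6), below 0 in 6 of 6 cows.

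The fall was found in every cow. Of the 9 genes, 8 were lower in 6 of 6 cows, beside 10.8% of all tested genes. These are the 8 called genes, and 48 of 48 of their within-cow values were below 0, from −1.91 to −0.10. The calls were made on the same values, so this is a description and not a further test. Genes measured in the same cow are not replicates. The median over the 8 genes was −0.998, −0.84, −0.79, −1.11, −0.58 and −1.08 in cows 1 to 6. Cow 4 had the largest fall for 5 of the 8 genes and cow 5 the smallest for 4, although cow 5 also had the largest fall of TM7SF2.

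Slide values are means over the within-cow changes, so their signs follow from the cows: below 0 for the 8 called genes and above 0 for LBR. Within slides 1, 2 and 3, each with 2 cows, CYP51A1 changed by −1.09, −1.39 and −1.28, and TM7SF2 by −1.58, −1.18 and −1.67. NSDHL was at −1.28 and −1.18 on slides 1 and 2 and at −0.72 on the dim slide 3, and EBP at −0.51, −0.68 and −0.31. The fall was also smallest on slide 3 for MSMO1 (−1.01, −1.12 and −0.86), HSD17B7 (−0.38, −0.57 and −0.35) and DHCR7 (−0.83, −0.97 and −0.72). It was not for CYP51A1, TM7SF2 and SC5D (SC5D at −0.63, −0.73 and −0.67). LBR was at 0.22, 0.26 and 0.16. Without slide 3, 8 of the 9 genes were called.

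**Figure D3:**
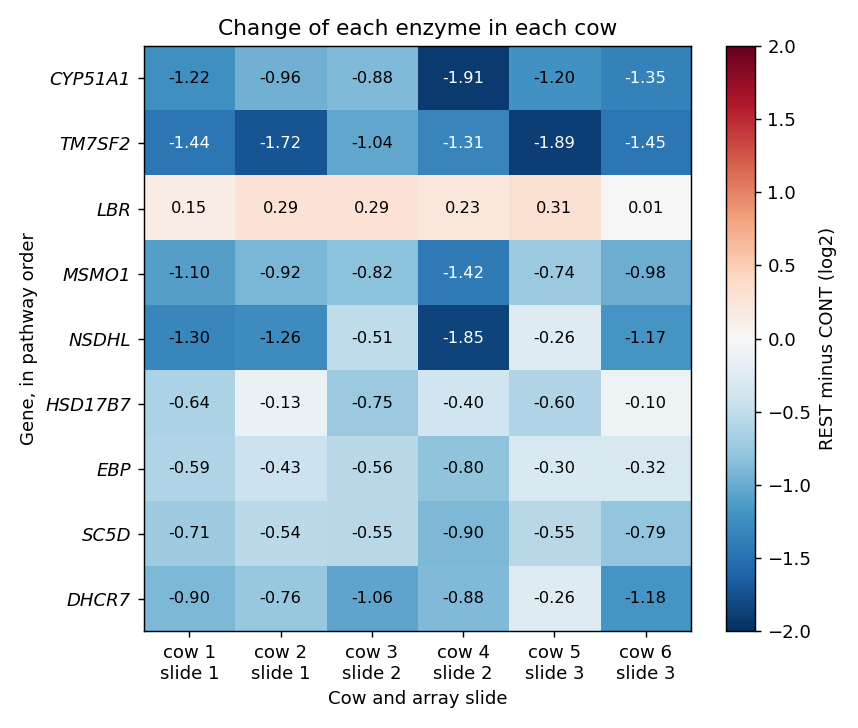
Change (REST minus CONT, log2, colour scale from −2 in blue to 2 in red) of the brightest probe of each gene, by cow and slide. The 8 rows other than LBR are below 0 in all 6 cows, CYP51A1 in cow 4 has the lowest value (−1.91), and LBR is close to 0.

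Related genes were described from 4 lists, to be read beside the 16.2% of all tested genes that were called in either direction. Upstream of lanosterol, the enzymes of the mevalonate pathway make the isoprenoid units and join them to squalene. Of 11 such genes on the array 9 were tested, and 8 of these fell, none rose, and PMVK (phosphomevalonate kinase) was not called at 0.22 (adjusted p = 0.330). ACAT2 and LSS did not pass the filter on dim probes. The median change was −1.17. HMGCS1, which makes HMG-CoA, changed by −2.24 (SE 0.32, adjusted p = 0.00885), further than any of the 9 genes. IDI1, which interconverts the isoprenoid units, changed by −1.27 (SE 0.13, adjusted p = 0.00459) and MVD by −1.21 (SE 0.11, adjusted p = 0.00275).

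The list for SREBP control and sterol uptake behaved less uniformly: of 13 tested genes 2 fell, 1 rose and 10 were not called, with a median change of −0.11. INSIG1, which holds SREBP in the endoplasmic reticulum and is itself an SREBP target, changed by −1.98 (SE 0.27, adjusted p = 0.00776). NR1H3, the sterol-sensing nuclear receptor LXR alpha, rose by 0.40 (SE 0.10, adjusted p = 0.0482) and was not called when cow 1, cow 2 or cow 4 was left out (adjusted p up to 0.160 over 20 other settings). The transcripts of SREBP and its escort were not called, with SREBF1 at −0.09 (adjusted p = 0.771), SREBF2 at −0.24 (adjusted p = 0.129) and SCAP at −0.11 (adjusted p = 0.507).

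CYP51A1, MSMO1 and SC5D need electrons from partner proteins. The electron donor list holds 7 genes, taken for this role or for binding the P450. Of these 1 fell, 1 rose and 5 were not called, and the median change was −0.04. CYB5B, a cytochrome b5 of the outer mitochondrial membrane, changed by −0.98 (SE 0.17, adjusted p = 0.0176), close to MSMO1. CYB5A, the microsomal cytochrome b5, was at −0.04 (adjusted p = 0.759), and POR, the reductase that serves microsomal P450 enzymes, at −0.05 (adjusted p = 0.714). CYB5R3, which passes electrons to cytochrome b5, rose by 0.30 (SE 0.09, adjusted p = 0.0680), but was not called when any of cows 1 to 5 was left out (adjusted p up to 0.393 over 20 other settings).

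For the nuclear side of LBR, 11 genes of the lamina, the nuclear envelope and the heterochromatin proteins that bind LBR were tested, of which 1 fell, 1 rose and 9 were not called, with a median of 0.09. LMNB2, a B-type lamin, rose by 0.49 (SE 0.13, adjusted p = 0.0497) and LMNB1, the other B-type lamin, changed by −0.30 (SE 0.08, adjusted p = 0.0511). Neither call was firm: LMNB2 was lost without cow 1, 2 or 4 and LMNB1 without cow 2, 3, 4 or 6, and over 20 other settings, unpaired ones included, the adjusted p-value reached 0.160 for LMNB2 and 0.220 for LMNB1.

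**Figure D4:**
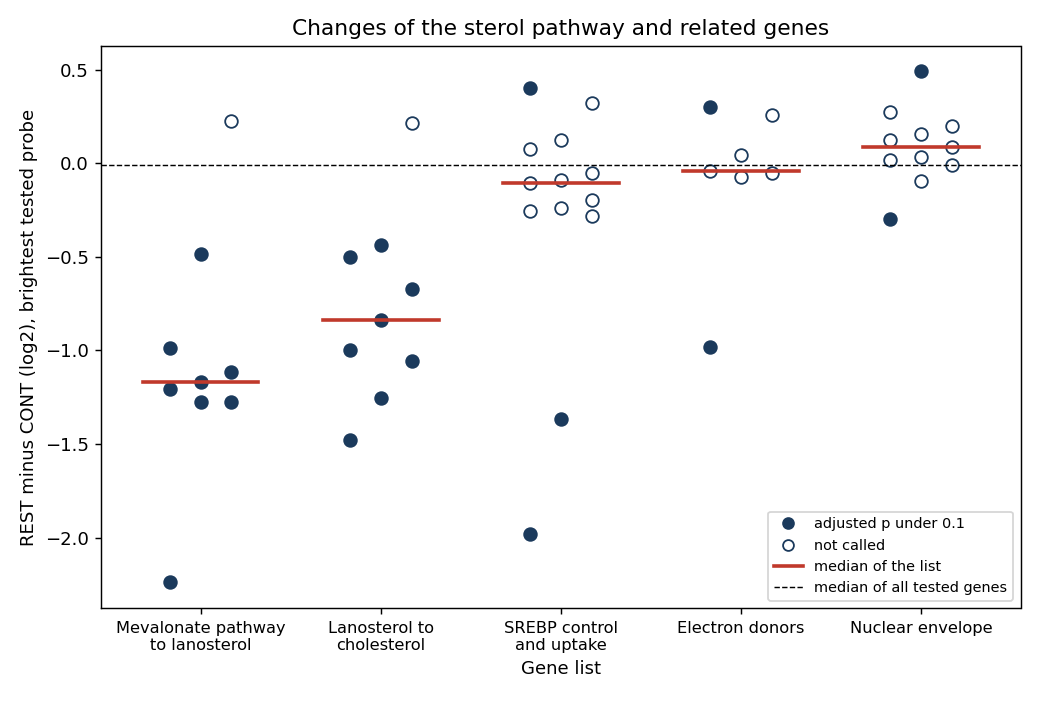
Change (REST minus CONT, log2) of the brightest tested probe of each gene in 5 lists, filled where called, with red lines for list medians and a dashed line for the median of all tested genes (−0.01). The mevalonate pathway (median −1.17) and the lanosterol-to-cholesterol enzymes (median −0.84) lie well below the other lists, whose medians are between −0.11 and 0.09.

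Genes with a profile like that of TM7SF2, the member with the smallest p-value, were sought among the tested genes outside the 9. Centred profiles over the 12 arrays were compared by root-mean-square distance. The nearest were IDI1 (0.416 log2 units) and SQLE (0.473), the squalene epoxidase. The profile of TM7SF2 itself had a root-mean-square size of 0.933, so these were not close copies.

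The cell types of the biopsies were followed by marker lists, whose counts are also to be read beside the 16.2% of all tested genes called in either direction. The shares of called endothelial and leukocyte markers (1 of 6 and 1 of 7) were near that background. Of 10 luminal epithelial markers 8 were tested, among them the milk protein genes CSN3, CSN1S1 and LALBA. The log2 of the summed signal of the 8 was 11.5 to 11.8 in CONT and 11.2 to 11.5 in REST. Its mean within-cow change was −0.22 (−0.32 to −0.05). This sum is mostly milk protein signal: mean CONT signals were 9.79 or more for the milk protein genes and 7.11 (ELF5) or less for the others. The median change of the 8 markers was 0.04, opposite in sign to that of the sum. Whether luminal cell content changed was not tested. The list was split: CSN3 (−0.28) and CSN1S1 (−0.26) fell, KRT8 (0.72) and KRT18 (0.52) rose, and 4 were not called, among them ELF5 (−0.05, adjusted p = 0.727). The probes of the called markers disagreed: 1 of 2 tested CSN3 probes, 1 of 6 CSN1S1 probes, 2 of 3 KRT8 probes and 2 of 3 KRT18 probes were called, and the changes of the KRT8 probes ranged from −0.14 to 0.72. By its brightest probe, the change of KRT8 was larger in size than the falls of SC5D, EBP and HSD17B7, and that of KRT18 larger than the falls of EBP and HSD17B7. Of 7 tested myoepithelial markers 2 fell, ACTA2 (−0.38) and CNN1 (−0.53), with a summed signal of 6.66 to 7.64 in CONT and 6.51 to 7.53 in REST. Of the adipocyte markers only FABP4 passed the filter (−0.35, called; 7.14 to 7.72 in CONT and 6.61 to 7.18 in REST), while PLIN1, LEP, CIDEC and RETN were too dim to be tested.

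Of 6 endothelial markers 1 rose (VWF, 0.54), with a summed signal of 3.33 to 3.74 in CONT and 3.58 to 3.84 in REST. None of 6 fibroblast markers was called (5.10 to 6.00 and 4.72 to 6.20), and of 7 leukocyte markers CD3E rose (0.35; 4.15 to 4.42 and 4.14 to 4.34). HBA, the tested erythrocyte marker, was at −0.33 (adjusted p = 0.108), and of 2 tested skeletal muscle markers CKM fell (−0.36). Of the marker calls, only VWF also passed without pairing (adjusted p = 0.0541). The part of these shifts in the changes of the sterol enzymes was not tested.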

How the data were processed

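Total RNA (50 ng) of 12 mammary biopsies was labelled with Cy3 and hybridized to 3 bovine 4 × 44K slides. The deposited scanner files hold intensity values that the authors extracted with Agilent Feature Extraction (version 11 in the submitters' processing notes): background-subtracted processed signals on a linear scale, not scaled between arrays. The deposited series table repeats these intensity values (45220 per array), so the shift to the 75th percentile that the study's methods name was computed here. No spot was saturated. Marked spots (1 to 13 per array) were left out. Tested probes were those well above background throughout CONT or throughout REST.

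REST and CONT were compared with limma 3.58.1 (lmFit, eBayes) in R 4.3.3 with the cow as a fixed block. The labels pair the samples by animal. As a check, deviations from the group means correlated at 0.356 to 0.574 within a cow and at −0.33 to 0.135 between cows. Slide 1 held cows 1 and 2, slide 2 cows 3 and 4, and slide 3 cows 5 and 6, each with CONT and REST. Tests were two-sided, with Benjamini-Hochberg adjustment over all tested probes and a threshold of 0.1. Files were read in Python 3.11.15 (pandas 2.3.3, numpy 2.4.6) and plotted with matplotlib 3.10.9. The fit was tested on simulated data. The number of arrays limits the precision.

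Symbols came from a RefSeq gene table through the transcript identifiers, for 27131 of 43653 probes (62.2%). Its assembly differs from that of the array annotation, so no coordinates are given. The genes, the lists and the TM7SF2 and LBR comparison were chosen with earlier results of these data known. All 9 genes were named, of each other list at most the 4 called genes of largest absolute change and any called gene opposite in sign to the median of its list, and for TM7SF2 the 3 nearest profiles. Some genes picked in this way enter the counts and medians, but their own values are not reported here. SREBF1, SREBF2, SCAP, CYB5A, POR and PMVK and the marker genes were named outside this rule, after their values were seen. Alternatives were no pairing, the cow as a random block, the slide as a block in place of the cow, quantile, median and normexp (offset 50, on median spot and background intensities, since the files used here hold no mean) normalization, the deposited table, other filters, marked spots kept, eBayes with trend and robust, the methods' t-test, the mean over probes of a gene, and each cow left out. Leaving out slide 3 was added after the data were seen.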

Additional observations from a re-analysis of the deposited data

Results flagged for a closer look

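Among 57 groups of 6 arrays (19 probes of the 9 genes in CONT, in REST and as within-cow changes), 1 held an array that stood apart from the rest by Dixon's test. It was the REST array of cow 2 on the third brightest of the 4 MSMO1 probes, at 0.72 where the other 5 arrays lay between 1.16 and 1.39, a gap of 0.645 of the whole range. Chance alone would single out about 2.85 of 57 such groups. Cow 2 was the lowest REST array on 3 of the 4 MSMO1 probes. On the brightest MSMO1 probe the lowest was cow 4.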

How the results depend on the processing

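Of the 21 alternatives, only other normalizations and the mean over probes could turn the sign of a change. Under these the 8 genes called lower kept a negative change and LBR a positive one. The others gave the same estimate, or left out cows although all 6 cows had changes of the same sign. CYP51A1, TM7SF2, MSMO1, SC5D and DHCR7 were called under every alternative. Without the pairing of samples by cow (no replicate block), 836 probes were called in place of 3104, 7 of the 9 genes (HSD17B7 lost), 14 probes of the 9 genes, 1 electron donor gene and 0 nuclear envelope genes (limma, adjusted p under 0.1). With the slide as a block in place of the cow, 1898 probes, 7 of the 9 genes (HSD17B7 lost at 0.109) and 1 electron donor gene were called. Without the filter, which puts 43653 probes in the adjustment, 388 probes, 5 of the 9 genes (NSDHL and EBP at 0.106 and HSD17B7 at 0.155 lost), 1 SREBP or uptake gene, 0 electron donor genes and 0 nuclear envelope genes were called. The methods' t-test, unpaired, called 722 probes, 6 of the 9 genes (EBP lost at 0.110 and HSD17B7 at 0.228), 10 of their probes, 1 electron donor gene and 0 nuclear envelope genes. LBR was called with quantile normalization (adjusted p = 0.0992), normexp (0.0539 and 0.0827), eBayes with trend and robust (0.0963) and the mean over its probes (0.0678). Leaving out each cow in turn, 1045 to 3252 probes were called, with the lowest counts without cow 1 (1533), cow 2 (1045) or cow 4 (1205), along with 7 to 8 of the 9 genes, 14 to 16 of their probes, 7 to 8 mevalonate genes, 2 to 4 SREBP or uptake genes, 1 to 2 electron donor genes and 0 to 3 nuclear envelope genes. The TM7SF2 change minus the LBR change lay between −1.76 and −1.59 with a cow left out, at −1.62 without slide 3, and at −1.25 (75th percentile shift) and −1.20 (quantile normalization) after normexp correction. Of all called probes 54.9% were lower in REST, and 50.3% with quantile normalization, 46.0 and 51.1% with normexp, 63.4% without pairing and 66.9% by the methods' t-test. Where no cause is given, it was not tested. With the other normalizations, the change of each of the 9 genes and the TM7SF2 minus LBR difference kept their sign. The share of lower calls did not stay above 50% with normexp and the 75th percentile shift, and TM7SF2 did not stay ahead of CYP51A1 with either normexp setting. Slide values and profile distances were not recomputed under the alternatives, and markers only without pairing.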
